A study of Mus musculus with 2 samples.

Results

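The nucleoplasm of lipid A-treated mouse macrophages held 94 antisense long noncoding RNAs (lncRNAs) at an appreciable level, of 2948 genes of that class in the annotation and 55536 genes in all. Members were taken as genes whose every annotated transcript carries the class antisense and whose expected count, the read count assigned to a gene by the authors' quantification, was at least 100 in both libraries. Symbols of small nucleolar RNA host genes were to be left out, which removed 0 genes. The members were thus chosen by their counts, and the levels below describe them and support no test. The libraries come from primary macrophages that were grown in culture out of the bone marrow of C57BL/6J mice. All cells received lipid A, the part of bacterial lipopolysaccharide that activates the receptor TLR4, at 100 ng/ml for 50 minutes. The assay was RNA-seq of total RNA after removal of ribosomal RNA, from a fraction that the description calls nucleoplasmic and other labels call nuclear. The 1 group holds 2 biological replicates, which carry the same donor label, with sex and age not collected. Replicate 1 was made from 500 ng of RNA and replicate 2 from 1 µg. No untreated cells and no cytoplasmic fraction were analysed here, so the levels show neither an effect of lipid A nor nuclear enrichment.

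Antisense lncRNAs are transcribed from the strand opposite another gene. Some, such as Kcnq1ot1 and Airn, silence neighbouring genes on the chromosome that carries them, and others start beside the promoter of a coding gene and run away from it. Many are spliced poorly and stay in the nucleus, and for most of the members no function is known.

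Replicate 1 held 10395300 expected counts and replicate 2 held 20515408, and members took 0.428% and 0.370% of the counts of gene rows. The 10 macrophage markers checked lay between 7.76 and 1461 TPM in replicate 1, and between 6.02 and 1507 TPM in replicate 2. TPM is a level corrected for transcript length and library depth. Markers of B, T and NK, erythroid, fibroblast, endothelial and neutrophil cells reached at most 1.67 TPM (replicate 1) and 1.27 TPM (replicate 2). In such bulk samples, fewer cells that express a gene and less RNA per cell cannot be told apart.

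How far reads of the strands were kept apart bears on every value of an antisense gene, and the sources used here give no strand setting. Counts were therefore compared on noncoding loci that lie in introns of a single coding gene, the members among them, by strand relative to that gene. The comparison cannot give the degree of separation, since RNA made from the opposite strand and reads put on the wrong strand are counted alike. Around coding genes under 1 TPM, the median locus had 0 expected counts per kb on either strand in both libraries. Around coding genes of 10 to 50 TPM, loci on the opposite strand had a median of 13.7 counts per kb in replicate 1 and 21.8 in replicate 2, against 27.6 and 40.3 for loci on the same strand. Around coding genes of 50 TPM or more, the medians were 26.6 and 64.3 counts per kb on the opposite strand, against 164 and 242 on the same strand. Counts on both strands thus went up with the level of the surrounding gene, and the pooled medians of the opposite strand were the lower ones. The pooled loci differ in structure, however, since most opposite-strand loci have 2 or more exon blocks and most same-strand loci have 1. Spearman's rho between counts per kb and the level of that gene was 0.64 in replicate 1 and 0.68 in replicate 2 over 774 opposite-strand loci, against 0.80 and 0.81 over 1299 same-strand loci, where loci share libraries and some share a surrounding gene. Among loci of 1 exon block with a coding gene of 50 TPM or more around them, the medians were 58.3 and 89.0 counts per kb on the opposite strand, against 187 and 245 on the same strand. Among loci of 2 or more exon blocks around genes of 10 to 50 TPM the order was the other way, with 8.84 and 20.1 counts per kb on the opposite strand, against 8.38 and 15.3 on the same strand. Around genes of 50 TPM or more, such loci had 9.68 and 42.1 counts per kb on the opposite strand, against 20.3 and 42.8 on the same strand, the last over 9 loci. Reads of an antisense RNA and of the unspliced coding transcript opposite it cannot be told apart with certainty in these files, which holds for each member that overlaps a coding gene. In exons the check had little to work on, since 2 genes of the class had at least 90% of their exonic bases in exons of an opposite gene at 100 TPM or more. Gm47123, in the cathepsin gene Ctsl, had 35.2 and 55.1 counts, against 2575 and 7758 for Ctsl, and CR974462.3, in the chromatin reader gene Brd2, had 0 and 59.2 counts, against 5429 and 12005 for Brd2. The authors' other quantification gave Gm47123 0.00022 and 0 estimated counts and CR974462.3 3.28 and 33.4, so these counts depend on the quantification.

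**Figure D1:**
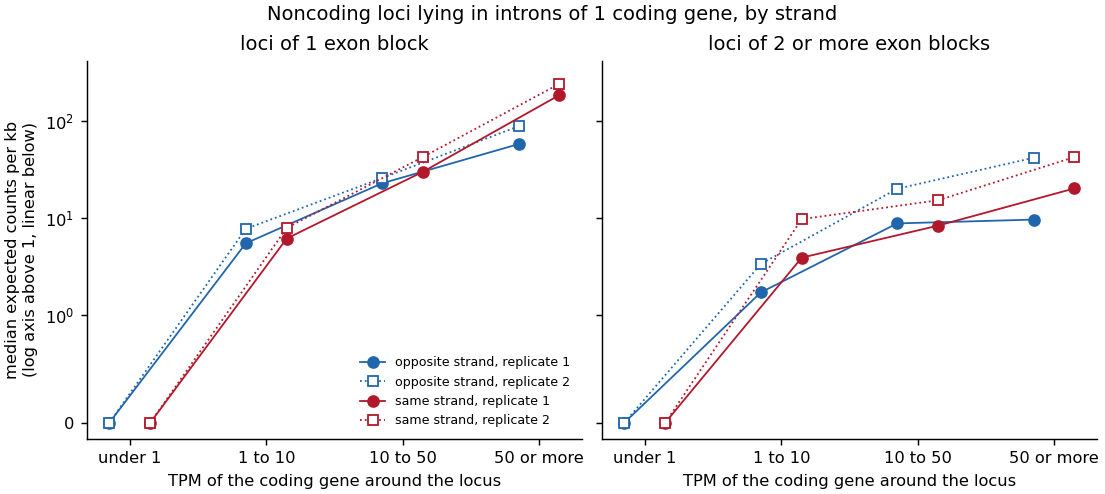
Median expected counts per kb (log axis above 1) of noncoding loci lying in introns of 1 coding gene, by the TPM of that gene, for loci on its opposite strand (blue) and on the same strand (red), in replicate 1 (filled) and replicate 2 (open). Both strands are at 0 around genes under 1 TPM and climb with the level of the surrounding gene, and single-block loci on the opposite strand reach 58.3 and 89.0 counts per kb, against 187 and 245 on the same strand.

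The members were a small, uneven part of their class. Of the 2948 genes of the class, 1557 had 0 counts in both libraries, 1 reached the minimum in replicate 1 alone and 65 reached it in replicate 2 alone. The 94 members held 77.6% of the counts of the class in replicate 1 and 72.7% in replicate 2. The 10 members with the most counts held 53.4% and 49.0% of the members' counts, with Kcnq1ot1 alone at 11.3% and 8.38%. The members with the smallest counts inside the minimum were Gm15512 with 102 and 356 counts, A130051J06Rik with 103 and 620, and Gm10791 with 104 and 154 in replicates 1 and 2. Just outside lay AC132460.3 with 98 and 136 counts, 4921511I17Rik with 96 and 336, and Gm45449 with 94.2 and 99.05. Members lay on 19 chromosomes, with 1 to 7 on each. Only 13 have an assigned symbol, 56 have Gm names, 24 have Rik names, and AC119228.1 goes by a clone name.

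The median member had 10.7 TPM in replicate 1 (range 1.46 to 196) and 6.72 TPM in replicate 2 (range 0.47 to 136). Among genes past the same count minimum, the median of 6146 protein-coding genes was 14.7 and 9.20 TPM, and that of 85 long intergenic noncoding genes was 12.3 and 6.97 TPM. Members thus sat near lincRNA genes chosen in the same way. At 10 TPM or more were 50 members in replicate 1 and 27 in replicate 2, a count not made for the other genes. TPM was lower in replicate 2 for genes in general, with a median log2 ratio to replicate 1 of -0.73 over 6804 genes past the minimum.

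**Figure D2:**
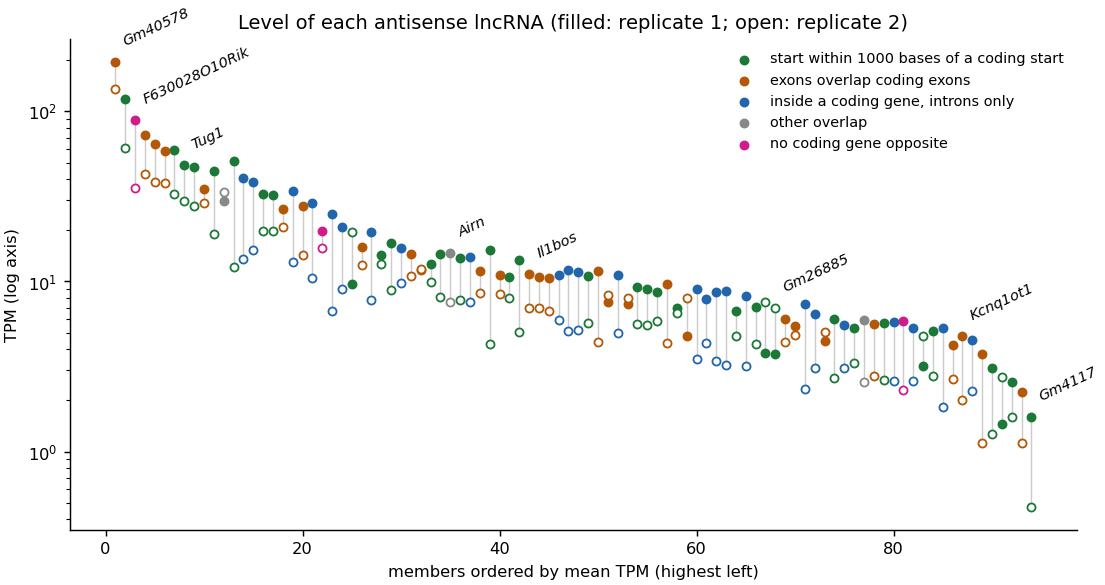
TPM (log axis) of all 94 members in order of mean TPM, in replicate 1 (filled) and replicate 2 (open), coloured by position relative to coding genes on the other strand. By mean TPM, Gm40578 is highest at 196 and 136 TPM and Gm4117 lowest at 1.60 and 0.47 TPM, with medians of 10.7 and 6.72 TPM.

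Gm40578 was the highest member, with 196 TPM in replicate 1 and 136 TPM in replicate 2 (166 ± 42.3, SD, n = 2). It lies on the minus strand of chromosome 12 (111450405 to 111500840, mm10) and overlaps Tnfaip2, a gene induced by tumour necrosis factor, by 4614 bases. Tnfaip2 itself had 1873 and 1179.6 TPM, and 29.4% of the exonic bases of Gm40578 lie in its exons. Gm40578 also overlaps the coding gene Gm266 on its own strand, the sole member that overlaps a same-strand coding gene, so its counts can hold reads of either neighbour.

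4933423P22Rik came next, with 118 and 60.9 TPM. It lies inside Ptprj, a receptor tyrosine phosphatase of blood cells, which had 75.3 and 67.6 TPM, and their exons do not overlap. Its start is 66 bases from an internal Ptprj start, used by transcripts with 3.09% and 2.32% of the TPM of Ptprj, and 101397 bases from the 5′ end of the gene. The member was above Ptprj in replicate 1 and below it in replicate 2.

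F630028O10Rik, on the X chromosome, had 88.7 and 35.3 TPM with no coding gene opposite it and none starting on the other strand within 5000 bases. It is the highest of the 3 members with no coding gene on the other strand. The others were 4930430E12Rik with 19.9 and 15.6 TPM and Gm26947 with 5.88 and 2.29 TPM, which were named after their values were seen.

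AC119228.1 lies inside Cd274, which encodes the checkpoint ligand PD-L1, and had 72.9 and 43.0 TPM, against 228 and 89.1 TPM for Cd274. Gm37787 lies inside Slamf7, a receptor of the SLAM family, and had 58.1 and 38.1 TPM, against 282 and 173 TPM for Slamf7, with 72.3% of its exonic bases in Slamf7 exons. Gm26716, inside the syndecan gene Sdc3, had 64.4 and 38.2 TPM, against 51.4 and 43.3 TPM for Sdc3. All of its 415 exonic bases lie in Sdc3 exons, so its level is the least separable of the group. The authors' other quantification gave it 159 estimated counts in replicate 1 and 9.29 in replicate 2, where the first gave 141 and 297.

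Gm10634 had 59.1 and 32.7 TPM opposite Bcl2a1d, an anti-apoptotic BCL2 family gene with 221 and 147 TPM and with near-identical relatives, so its reads may be split among copies. Gm16712 had 47.1 and 27.8 TPM opposite Ebi3, a subunit of interleukin 27, with 33.0 and 30.1 TPM, and starts 157 bases from a start of the splicing factor gene Yju2. Gm29361 had 44.6 and 18.9 TPM opposite the splicing regulator Rbm25, with 281 and 123 TPM. Gm20234 was higher in replicate 2, unlike these, with 29.7 and 33.6 TPM. Relative to the median ratio of all genes its log2 ratio of replicate 2 over replicate 1 was 0.90, but -0.14 in the other quantification. Gm17056 and Gm27177 belong with the members above their partner and are described there.

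Kcnq1ot1 and Airn, which silence imprinted neighbours on the paternal chromosome in mouse, were both members. Kcnq1ot1 had the most counts of any member, 5001 in replicate 1 and 6361 in replicate 2. Spread over a single exon of 93092 bases on chromosome 7 (143203458 to 143296549, minus strand), these came to 4.79 and 2.02 TPM. Kcnq1, the potassium channel gene that contains it, had 0.07 and 0.02 TPM. Airn had 111 and 194 counts, or 14.7 and 7.57 TPM, against 39.1 and 28.6 TPM for Igf2r, the receptor gene whose start it crosses. Its gene body spans 118826 bases but its annotated exons 3597, and a transcript of 485 bases led with 44.0% and 37.9% of its TPM, so unspliced Airn RNA enters these counts only where it crosses annotated exons.

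Tug1, a nuclear lncRNA linked with chromatin repression, had 48.5 and 29.8 TPM. It has a start 86 bases from a start of Morc2a, a chromatin-silencing ATPase with 14.8 and 7.76 TPM, and the genes lie head to head. Tug1 was above Morc2a by 1.73 on the log2(TPM + 1) scale (mean of the libraries).

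The other members with an assigned symbol are mostly named for the gene they oppose. Rab10os had 14.4 and 10.8 TPM opposite the vesicle-trafficking GTPase Rab10, with 21.3 and 13.3 TPM. Aknaos had 10.7 and 8.01 TPM opposite Akna, with 66.0 and 66.1 TPM. Brip1os had 9.24 and 5.59 TPM, starts 177 bases from the DNA repair helicase gene Brip1 at 0.44 and 0.33 TPM, and extends across Ints2 and Med13. These 3 members were each within 2-fold of the usual ratio between the libraries.

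Zmiz1os1, opposite the transcriptional coregulator Zmiz1, had 4.77 TPM in replicate 1 and 8.04 TPM in replicate 2, against 61.2 and 42.2 TPM for Zmiz1. Igf1os had 5.94 and 2.57 TPM, against 136 and 63.9 TPM for the growth factor gene Igf1. Bcas3os1, in introns of Bcas3, had 5.34 and 2.60 TPM, against 20.7 and 12.3 TPM for Bcas3. Among these, Zmiz1os1 was the one with the higher level in replicate 2. Etohd2 had 5.10 and 2.79 TPM and starts 20 bases from the iron-sulphur cluster assembly gene Isca1, with 5.99 and 2.77 TPM. Anxa11os had 4.26 and 2.68 TPM, against 16.8 and 10.7 TPM for the annexin gene Anxa11. Phtf1os had 2.56 and 1.59 TPM and starts 7 bases from Phtf1, with 3.97 and 2.69 TPM. Etohd2 and Phtf1os were within 2-fold of the gene that starts beside them.

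Known antisense RNAs, taken as a list of symbols, were mostly below the minimum. Of 40 listed symbols, 32 were found. Kcnq1ot1 and Airn were members, 11 were of the class without being members, 4 carry the class on some transcripts only, and 15 are of another class altogether. Of the 11, 8 had 0 counts in both libraries, Dlx6os1, Wt1os, Hoxb5os, Emx2os, Nkx2-2os, Pax6os1, Vax2os and Tbx3os1. The authors' other quantification differed for some of these, with 502 and 183 estimated counts for Vax2os, 448 and 539 for Tbx3os1 and 52.7 and 41.3 for Wt1os. In the gene tables a count of 0 allows up to 0.290 CPM, counts scaled to library depth, in replicate 1 and 0.146 CPM in replicate 2, for counting error only. The other 3 had few counts, with Dnmt3aos at 27 and 77, Tsix, the antisense of Xist, at 9.45 and 8.49, and Nespas at 1 and 7. Zeb2os had 573 and 942 counts and fell outside the rule because some of its transcripts carry another class.

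A member was found opposite 7 genes of the lists for the response to lipid A. Among 26 cytokine and related targets of NF-kB, the transcription factor that TLR4 activates, 1 had a member opposite (3.85%), Il1b. Among 26 genes of the NF-kB pathway and its feedback, 3 did (11.5%), Bcl2a1d, Icam1 and Tnfaip2. Among 35 immediate early genes, 2 did (5.71%), Csrnp1 and Pim1, and among 30 interferon response genes 1 did (3.33%), Slfn2. Of 31 RNA processing genes, Rbm25 was faced by a member (3.23%). No member faced any of 28 TLR4 pathway genes, 26 macrophage transcription factors and receptors or 25 chromatin genes, although 4, 7 and 8 of these have an annotated antisense gene. For comparison, 105 of 22028 coding genes (0.477%) had a member opposite. That share was 2.36% of the 2927 coding genes with 10 TPM or more in each library and 0.0885% of the 12426 with under 1 TPM in each. The share thus went up with the level of the coding gene. The lists rest on 0 to 3 genes each, and nothing particular to a list is read from its share.

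**Figure D3:**
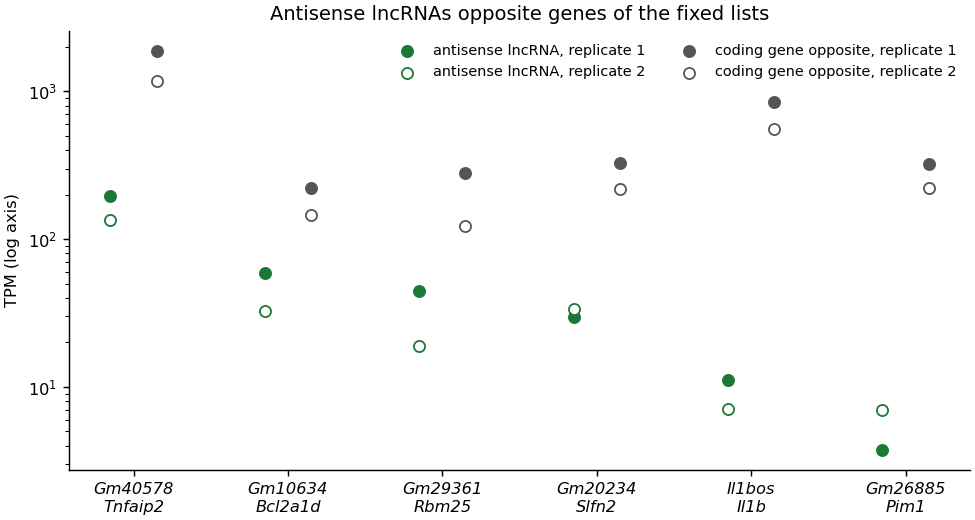
TPM (log axis) of the 6 members whose partner is in one of the gene lists (green, left in each pair) and of that partner (grey, right), in replicate 1 (filled) and replicate 2 (open). Every partner is above its member in both libraries, with the widest log2(TPM + 1) difference, as the mean of the libraries, at Il1bos and Il1b.

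Il1bos lies opposite Il1b, the gene of interleukin 1 beta. Il1bos had 193 and 372 counts, or 11.1 and 7.03 TPM, against 847 and 554 TPM for Il1b. The log2(TPM + 1) difference of member from partner was -6.12 as the mean of the libraries, the widest such mean among the members. In replicate 1 alone Gm37305 was wider, at -6.80, against -6.13 for Il1bos. Little of Il1bos can catch exonic reads of Il1b, since its annotated exons share 25 bases of 2980 with the exons of Il1b. These are the first bases of an Il1bos transcript, at chr2:129369897-129369921 on the plus strand (sequence from the GENCODE M21 transcripts, mm10), shown because they are the whole of the exon overlap, in capitals, with the next 15 bases of the transcript in lower case.
Il1bos, first 40 bases: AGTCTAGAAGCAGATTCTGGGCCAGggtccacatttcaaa

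Pim1, an early-response kinase gene, had 324 and 222 TPM. Gm26885, which has a start 45 bases from an annotated Pim1 start and overlaps the 5′ part of the gene on the other strand, had 3.76 TPM in replicate 1 and 6.99 TPM in replicate 2, a log2(TPM + 1) difference from Pim1 of -5.45. Gm26885 has 20 annotated transcripts, of which a single one of 3417 bases took 89.9% and 94.0% of its TPM. Slfn2, an interferon-responsive Schlafen gene, had 328 and 220.1 TPM, against the 29.7 and 33.6 TPM of Gm20234, which overlaps its body with no exonic overlap.

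Other members faced listed genes without having them as partner, since another gene overlaps them by more bases. 1700019L13Rik starts 123 bases from an annotated start of Csrnp1, a transcription factor gene of the immediate early list, and 1379 bases from its 5′ end. It had 9.60 TPM in replicate 1 and 19.6 TPM in replicate 2, against 189 and 128 TPM for Csrnp1. Gm47079, named here after its values were seen, lies across Icam1, Icam4 and Icam5 and had 5.30 and 3.33 TPM, against 501 and 406 TPM for the adhesion gene Icam1.

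Relative to the coding gene on the other strand, called the partner below and taken as the coding gene that overlaps the member by the most bases, most members were the lower of the pair. A partner was found for 91 members, 88 genes in all. The median log2 ratio of member over partner, on TPM with 1 added, was -1.71 in replicate 1 and -1.81 in replicate 2. Members were below their partner in both libraries in 68 of 91 pairs, a count not made over the class, so it is not read as a trait of members. They were above it in both in 16 (17.6%). A level above the partner in both libraries was found for 8.73% of the 928 genes of the class that had counts in both and a partner, members included. Members differ from those by their choice on counts. The median partner had 39.1 and 25.3 TPM, against 0.63 and 0.41 TPM for partners of the 2731 other genes of the class. Across the 91 pairs the levels of member and partner had a Spearman's rho of 0.28, as a description over genes of the same libraries.

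**Figure D4:**
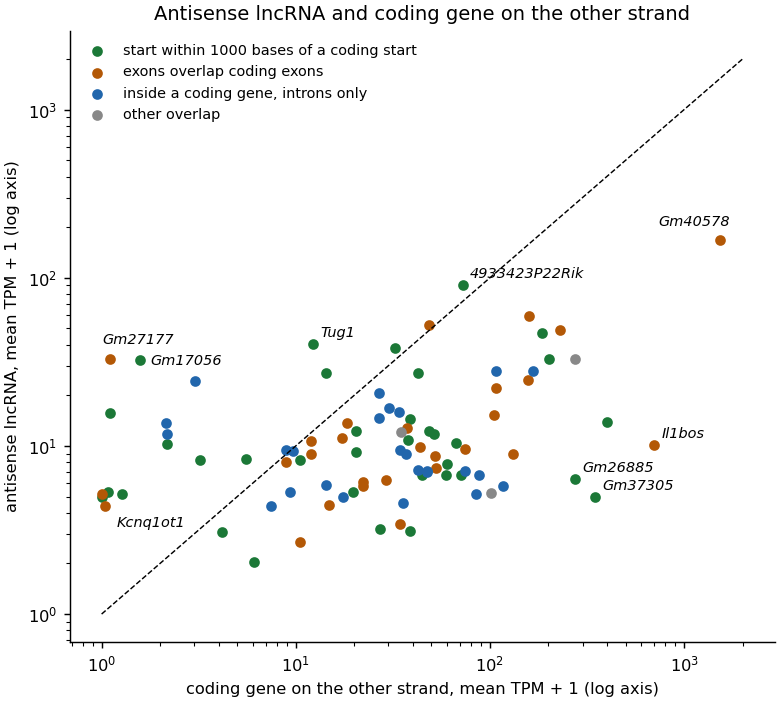
Mean TPM + 1 of each of 91 members (y) against that of the coding gene on the other strand (x), both log axes, coloured by position, with the dashed line at equal levels. Most points lie below the line, and those far above it have partners near 0 TPM.

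The members farthest above their partner faced genes that were nearly silent. Gm27177 had 34.8 and 29.1 TPM, against 0.13 and 0.07 TPM for the lysyl oxidase gene Loxl2. Gm17056 had 51.0 and 12.1 TPM, against 0.18 and 0.97 TPM for Lsmem1. Gm30329 had 34.0 and 13.0 TPM in introns of 1700011L22Rik, with 2.56 and 1.48 TPM. The partners of these 3 members were thus at a small part of the members' level, and Gm27177 also overlaps Entpd4b at 3.44 and 2.44 TPM. 1700019L13Rik was far above its partner Cx3cr1, a chemokine receptor gene of monocytes, with 0.08 and 0.14 TPM, but below Csrnp1 on the same side.

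Partners under 1 TPM in both libraries were found for 8 members. For 5 of these another coding gene at 1 TPM or more overlaps the member, among them Gm26642, opposite Elf3 at 0 TPM and also opposite Rnpep. The 3 with none were Gm17056, Kcnq1ot1 and B930036N10Rik, which had 5.73 and 2.65 TPM and was named after its values were seen. With the overlapping coding gene of the highest level taken in place of the partner, 11 members rather than 16 were above it in both libraries.

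At the other end, the members farthest below their partner were Il1bos, Gm37305, Gm26885 and Gm2245. Gm37305 had 3.17 TPM in replicate 1 and 4.76 TPM in replicate 2, against 463 and 229.6 TPM for Ccnl1, a cyclin that acts in splicing. Gm2245 had 16.9 and 8.93 TPM, against 466 and 333 TPM for Fyb, an adaptor protein of immune cell adhesion. Gm37305 has a start 105 bases from a Ccnl1 start and 491 bases from the 5′ end of that gene. Gm2245 lies inside Fyb, with a start 208 bases from an internal start of transcripts that held 3.59% and 5.31% of the TPM of Fyb.

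The members lay about their coding neighbours much as the rest of the class does. Of 94, 35 (37.2%) have a start within 1000 bases of an annotated transcript start of a coding gene on the other strand, against 36.3% of the 2854 other genes of the class. Another 28 (29.8%) overlap coding exons without such a start, against 28.8%, and 25 (26.6%) lie wholly in introns, against 24.8%. The exons of members were longer, with a median of 2772.5 exonic bases, against 887.0 bases in the rest of the class, and 15.96% had a single exon block, against 6.76%. Counts scale with length and chose the members, so these lengths are a description of the choice. Of the members, 53 lie inside their partner, 5 contain it, 34 share no exonic base with coding exons opposite, and 5 have at least 50% of their exonic bases there. These last counts were made for members alone and are not set against the rest of the class.

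The 35 members that start beside a coding start include 20 placed head to head with it and 15 that overlap the transcript from it. In 22 of them the member also starts within 1000 bases of the 5′ end of that gene, and in 13 the start beside it is an alternative or internal one. The transcripts from starts in the window held a median of 75.4% and 78.6% of the TPM of the coding gene. These members had a median of 9.60 and 6.57 TPM, against 36.8 and 25.4 TPM for the gene beside them, and 11 of the 35 members were above it in both libraries. Members in introns had a median of 10.9 and 4.98 TPM, against 37.97 and 21.2 TPM for the surrounding gene.

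Promoter sequence was looked up in RefSeq (GRCm38.p6, the same assembly as mm10), from 250 bases before to 50 bases after each start. An entry was found for 36 members, and in 23 its start lay within 100 bases of an annotated GENCODE start. The 11 of these that start beside a coding start had a median GC content of 56.3% and 17 CG dinucleotides, against 52.7% and 7 over all 27025 promoters in the table. The 5 that lie in introns had 44.3% and 3. A member can have several starts, and the RefSeq start need not be the one beside the coding gene: in 3 of the 11 the window holds an annotated start of that gene. Shown are Etohd2 and 2610020C07Rik, whose windows hold the start of a coding gene on the other strand, Tug1, which starts 377 bases from the 5′ end of Morc2a by the RefSeq start, and Kcnq1ot1, which lies alone inside Kcnq1. CG dinucleotides are in capitals. Etohd2 (chr13:59769716-59770015, plus strand) holds 29 of them, 2610020C07Rik (chr16:11203133-11203432, plus strand) 25, Tug1 (chr11:3648765-3649064, minus strand) 37 and Kcnq1ot1 (chr7:143296498-143296797, minus strand) 9. Etohd2, 2610020C07Rik and Tug1 have the most CG dinucleotides of the 11 windows beside a coding start. The others hold from 4 (0610038B21Rik) to 21 (Gm26885), with 12 in Gm2245, whose window also holds a coding start.
Etohd2: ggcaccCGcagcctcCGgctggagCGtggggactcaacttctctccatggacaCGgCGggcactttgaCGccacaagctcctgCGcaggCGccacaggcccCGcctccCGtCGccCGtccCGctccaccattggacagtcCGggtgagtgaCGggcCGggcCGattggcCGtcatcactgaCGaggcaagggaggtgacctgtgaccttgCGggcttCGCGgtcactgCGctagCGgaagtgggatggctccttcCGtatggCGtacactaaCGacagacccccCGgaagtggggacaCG
2610020C07Rik: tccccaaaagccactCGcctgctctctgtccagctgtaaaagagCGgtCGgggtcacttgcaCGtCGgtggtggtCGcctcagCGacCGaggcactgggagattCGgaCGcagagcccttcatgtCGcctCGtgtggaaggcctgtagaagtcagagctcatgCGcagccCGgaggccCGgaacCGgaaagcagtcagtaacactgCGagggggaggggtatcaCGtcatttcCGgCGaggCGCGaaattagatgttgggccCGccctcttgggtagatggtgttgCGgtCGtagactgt
Tug1: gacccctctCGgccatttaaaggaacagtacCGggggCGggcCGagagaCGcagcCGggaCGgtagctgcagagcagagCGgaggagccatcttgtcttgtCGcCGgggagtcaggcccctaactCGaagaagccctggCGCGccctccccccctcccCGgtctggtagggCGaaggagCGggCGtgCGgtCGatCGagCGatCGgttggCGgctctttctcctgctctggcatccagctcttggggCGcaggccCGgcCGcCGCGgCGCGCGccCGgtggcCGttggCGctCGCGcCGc
Kcnq1ot1: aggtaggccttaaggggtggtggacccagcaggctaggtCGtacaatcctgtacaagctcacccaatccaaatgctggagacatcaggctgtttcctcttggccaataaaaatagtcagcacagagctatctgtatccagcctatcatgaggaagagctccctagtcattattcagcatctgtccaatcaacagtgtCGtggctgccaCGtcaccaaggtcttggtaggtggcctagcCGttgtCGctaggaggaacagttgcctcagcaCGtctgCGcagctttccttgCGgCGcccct

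2610020C07Rik, named after its values were seen, had 10.8 and 5.73 TPM. Its RefSeq start lies 52 bases from the 5′ end of Rsl1d1, a ribosome biogenesis gene with 5.62 and 4.40 TPM, and the start of Etohd2 lies 156 bases from that of Isca1. Of the members shown, Etohd2, 2610020C07Rik and Tug1 were thus near or above the coding gene at their start, with Etohd2 below Isca1 in replicate 1. Gm2245, whose window also holds a coding start but is not shown, was far below. It had 16.9 and 8.93 TPM, against 466 and 333 TPM for Fyb. 2610020C07Rik was also below its partner Gspt1, which had 22.03 and 16.9 TPM. No link between CG content and level is read from the members shown.

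Motifs were searched on both strands of the 23 promoters, and none of the letters searched contains another. The GC box GGGCGG was found in 6, Tug1 and Airn among them, against 35.9% of all promoters. The TATA box TATAAA was found in 2, Airn and Bcas3os1, against 14.2%, and the PU.1-type core GAGGAAG in 4, Kcnq1ot1 and F630028O10Rik among them, against 13.5%. The AP-1 site TGANTCA, the kappaB consensus and the element TGACGTCA were found in 0 of 23, against 7.93%, 4.35% and 1.88% of all promoters. A match or its lack describes the letters of these windows alone.

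Between the replicates, most members lay within 2-fold of the usual ratio. Over 6804 genes past the minimum, TPM in replicate 2 relative to replicate 1 had a median log2 ratio of -0.73, and members lay at -0.13 relative to it, with 83 of 94 within 2-fold. More than 2-fold higher in replicate 2 relative to that median were 6 members (6.38%), against 1.65% of all genes, and more than 2-fold lower were 5 (5.32%), against 1.44%. Each library stands alone on its side of this ratio, so these counts have no test.

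Of the 6 members higher in replicate 2, 5 start beside a coding start. 1700019L13Rik had 166 counts in replicate 1 and 997 in replicate 2, a log2 TPM ratio of 1.76 relative to all genes. A130051J06Rik, beside the lipid scramblase gene Ano6, had 3.82 and 7.53 TPM, a relative ratio of 1.71. Gm49774, which starts 21 bases from Hmga1, a chromatin architecture gene, had 1.46 and 2.76 TPM, a relative ratio of 1.65. For Gm26885 and Gm37305 the relative ratios were 1.62 and 1.31. In the other quantification Gm26885 was lower in replicate 2, with a relative ratio of -0.51, so its difference rests on the quantification. There, 1700019L13Rik stood at 1.62 and Gm37305 at 1.17, while A130051J06Rik at 0.79 and Gm49774 at 0.77 were under 2-fold. Their coding neighbours did not share this difference, with relative ratios of -0.07 for Ano6, 0.32 for Hmga1, 0.18 for Pim1 and -0.29 for Ccnl1. The sixth was Zmiz1os1, at 1.48, with Zmiz1 at 0.19.

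The members lower in replicate 2 included Gm17056, with 51.0 TPM in replicate 1 and 12.1 TPM in replicate 2, a relative ratio of -1.34. 4930453C13Rik, in introns of the ataxin gene Atxn1, had 25 and 6.68 TPM, a relative ratio of -1.18. Gm16185 had 15.3 and 4.30 TPM and starts 65 bases from an internal start of Slc25a36, a mitochondrial carrier gene whose own ratio was -0.21, against -1.10 for the member. Gm4117, the member of the lowest mean level, had 1.60 and 0.47 TPM, a relative ratio of -1.04. Most of that TPM, 88.75% and 81.25%, came from a transcript of 723 bases with only 8 and 7 counts. The gene had 115 and 160 counts in all, and its relative ratio in the other quantification was -0.56, under 2-fold. Gm15991 was the fifth, at -1.02, and was named after its values were seen.

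The ratio went with position. The 25 members in introns had a median relative ratio of -0.49 and 24 of them were below 0, whereas their partners had a median of 0.10 and 9 of 22 below 0. In 21 of 22 such pairs the member lay below its partner. Members beside a coding start had a median of 0.0070, and those overlapping exons 0.16, close to the 0.11 of their partners. The libraries differ in RNA input and depth, and whether these play a part was not tested.

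The ratio also went with GC content. Members in introns had a median GC content of 44.5%, against 48.0% for those overlapping exons. Over the 94 members Pearson's r between GC content and the relative ratio was 0.60 and Spearman's rho 0.53, and over 6801 genes past the minimum r was 0.52 and rho 0.53, a description in which all points share the same 2 libraries. With all genes split into equal groups at 45.5% and 51.6% GC content, members had median relative ratios of -0.44 (38 members), -0.13 (41) and 0.64 (15) from low to high, against -0.25, -0.01 and 0.27 for all genes.

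**Figure D5:**
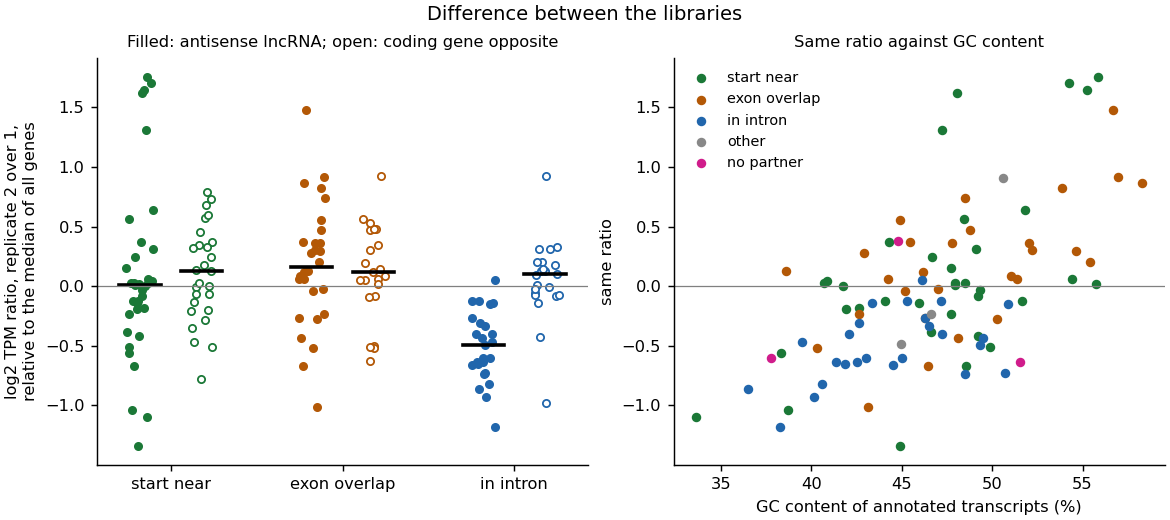
Log2 TPM ratio of replicate 2 over replicate 1 relative to the median of all genes past the minimum. Left, members (filled) and their partners (open) by position, with medians as black bars; right, the members' ratio against the GC content of their transcripts (%). Members in introns lie below 0 while their partners centre near 0, and the ratio climbs with GC content.

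Most members with several isoforms used the same one in both libraries. Of 41 members with 2 or more annotated transcripts, 40 had the same leading transcript in both, and in 21 it took over 80% of TPM in both. The same shares over all genes with several transcripts were not counted, so nothing particular to members is read from them. The exception was Tug1, with 8 transcripts, whose leader in replicate 1 held 28.1% of its TPM and 19.0% in replicate 2. Transcripts of a gene share most of their bases, so such shares are estimates of the quantification.

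The authors' other quantification, made from the reads without an alignment, gave members more counts. Its counts over the first were 2.03 at the median member in replicate 1 and 1.39 in replicate 2, against 1.77 and 1.29 for all genes past the minimum. Relative to those medians, 82 and 86 of 94 members were within 2-fold. This was not counted over all genes, so it does not show closer or looser agreement than is usual. The exceptions on the high side included Gm4117, Gm20234 and Airn. Gm20234 had 3174 and 3970 estimated counts there, against 166 and 604 expected counts, and Airn had 641 and 850, against 111 and 194.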

How the data were processed

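Total RNA-seq of 2 biological replicates of 1 group was analysed. The expected counts and TPM per gene are the authors' deposited values, and the file headers follow RSEM. The estimated counts and TPM per transcript of the other quantification are deposited with headers that follow kallisto, and were summed per gene. Per the authors' readme files, the gene tables came from alignments to transcripts, on mm10 with annotation M21. The sources used here do not give program versions, filters or a strand setting. Spike-in rows (0.504% of the counts of replicate 1, 0.0967% of replicate 2) and numeric rows without a gene name (0.000106% and 0.000102%) did not enter CPM.

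Coordinates, strands and classes came from GENCODE M21, and promoters from RefSeq GRCm38.p6. The partner is the opposite-strand coding gene that overlaps a member by the most bases, or else one that starts within 5000 bases. Member over partner used log2(TPM + 1). Named members were the 12 highest by mean TPM, those with a partner in a gene list, the 4 most extreme each way between replicates and over the partner, 3 genes on each side of the count minimum, and those with assigned symbols. Members and lists were chosen with earlier results of these data known. With 1 group no test between conditions was possible, and all values are descriptions. The labels call the replicates biological, but nothing shows separate animals. The fold call was tested on simulated counts with counting error only, scaled by library size. Those lack the difference with GC content seen here, so they do not show how the call behaves on these libraries. Tools were Python 3.11.15, pandas 2.3.3, numpy 2.4.6 and, for one alternative scaling, TMM factors from edgeR 4.0.16 on rounded expected counts. Intervals of 0 counts cover counting error only. Alternatives changed the count minimum, unit, quantification, pseudocount, partner rule, start window, centring and library.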

Additional observations from a re-analysis of the deposited data

How the results depend on the processing

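The number of members depends on the minimum and the quantification. It was 94 with 100 expected counts in both libraries, 160 with a minimum of 50, 44 with 200 and 345 by the estimated counts of the other quantification, of which 93 were members, and 95 to 159 with 1 library left out. Without replicate 1 it was 159, so the shallower library sets the list. The median member level was 8.72 TPM over both libraries, 5.43 TPM in the other quantification and 39.7 TPM when rescaled over nuclear protein-coding genes and the class, with 6.72 to 10.7 TPM for single libraries; in CPM it was 18.3. The median log2 ratio of member over partner was -1.76, and -1.94 with a pseudocount of 0.1, -1.58 in the other quantification, -2.13 on expected counts, -1.94 with partners of at least 10 counts and -1.95 against the highest overlapping coding gene, the last chosen after seeing the data; single libraries gave -1.81 to -1.71. The members above their partner numbered 16, and 7 with partners of at least 10 counts, an alternative that leaves out low partners and keeps 82 pairs, with 17 to 22 in single libraries. Between replicates, the relative log2 ratio of Gm26885 was 1.62 and turned to -0.51 in the other quantification, and that of Gm20234 was 0.90 and turned to -0.14, an alternative chosen after seeing the data. Of 11 members over 2-fold, 10 kept their direction there and 6 stayed over 2-fold, and 22 of 25 members in introns were below 0 there, with a median of -0.42. Other values changed sign there too, among them the median of members beside a coding start, from 0.0070 to -0.023. Single members did so as well, such as 4930430E12Rik, from 0.38 to -0.38, and Airn, from -0.23 to 0.0096. The cause of the shifts was not tested. Starts near a coding start numbered 26 and 43 with windows of 500 and 2000 bases, against 35, and 22 when only the 5′ end of the coding gene counts, also chosen after seeing the data. The relative ratio between replicates stayed between -0.15 and -0.09, and 8 to 11 members were more than 2-fold from the median. Of 37 named members, 23 moved beyond the spread between replicates in the other quantification. No paired analysis was possible because there is 1 group. Counts near 100 limit the precision of the lowest members, and 1 library on each side of a ratio gives no error.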

Other observations

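By the other quantification, 252 genes of the antisense class reached 100 counts in both libraries without being members, while Gm26716 was the 1 member that did not. Gm48765 had 3463 and 3672 estimated counts in replicates 1 and 2, against 14 and 12 expected counts. Gm49015, in introns of Vwa8, had 2941 and 4509 estimated counts, against 2.12 and 10 expected counts. Gm20400, in introns of Slco1a6, had 2336 and 3320 estimated counts, against 0 expected counts in both libraries. The quantifications thus differ on which antisense loci hold reads, and which is nearer to the RNA in the cells was not tested. These genes were named after their values were seen.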
